A study of Mus musculus with 18 samples.

Results

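Crisp1, Cd52, Adam7, Rnase9, Spink8 and Gpx5 are 6 genes of the mouse epididymis whose transcripts appeared in RNA sequencing of testis, and their levels are described here library by library. They are 6 of the 20979 genes in the deposited table, taken by symbol, and all 6 symbols were found. They were chosen by their RPKM values in these same 18 libraries and by the correlation of those values with each other, so both are given as a description, with no test. Differences between the groups were tested. The choice was made with earlier results of these data known, so these tests are not independent of it. For Gpx5 the spread over libraries and the difference of a group from the rest lie in the same values.

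The study asked what fecal microbiota transfer (FMT) does to the testis after damage from fatty food and streptozotocin (STZ), which kills insulin-producing cells. All mice were of the outbred ICR stock and 10 weeks old, and 18 testis libraries fell into 6 groups of 3. The control group and the AOS group, given AOS at 10 mg/kg (the labels do not spell out the abbreviation), had neither diet nor STZ. The other groups had a high fat diet and STZ alone (HFD_STZ), with AOS at 10 mg/kg (HFD_STZ_AOS), with a transfer labelled for AOS at 10 mg/kg (HFD_STZ_AOS_FMT) or with a transfer labelled for control (HFD_STZ_control_FMT). The labels name neither the donors nor the dose of STZ nor how many animals stand behind a library. Libraries are named below by group and replicate, such as control 3. Nothing in the labels says that replicates are separate animals, so p-values measure only the spread between these libraries, which may be technical. The labels gave no batch.

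The epididymis is the coiled duct that receives sperm from the testis through the efferent ducts, and in it sperm mature and are stored. Its principal cells secrete proteins that coat passing sperm, and their output changes from the head (caput) through the body (corpus) to the tail (cauda) under the control of androgens and of testis fluid. The genes described here are textbook products of that epithelium rather than of the seminiferous tubule.

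RefSeq promoters were in the table used here for 3 of the 6 genes, and the 250 bases before each start are shown because Crisp1 and Rnase9 shared a pattern across the libraries that Gpx5 did not. Each runs 5′ to 3′ on the gene's minus strand in build GRCm38.p6. The capitals mark a TATA box (TATAAA) or a CCAAT box, written as its reverse complement ATTGG where it lies on the other strand.
Crisp1, chr17:40319208-40319457: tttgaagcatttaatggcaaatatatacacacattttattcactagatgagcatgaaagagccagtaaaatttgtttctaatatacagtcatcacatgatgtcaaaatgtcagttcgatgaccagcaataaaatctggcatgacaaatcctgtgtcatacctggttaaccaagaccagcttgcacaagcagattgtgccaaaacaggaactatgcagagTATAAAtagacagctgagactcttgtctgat
Rnase9, chr14:51041868-51042117: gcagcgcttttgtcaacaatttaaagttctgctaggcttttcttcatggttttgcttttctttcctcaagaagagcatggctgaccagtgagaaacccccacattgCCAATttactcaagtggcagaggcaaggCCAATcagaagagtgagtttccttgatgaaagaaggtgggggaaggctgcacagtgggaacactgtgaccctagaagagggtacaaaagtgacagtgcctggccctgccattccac
Gpx5, chr13:21292687-21292936: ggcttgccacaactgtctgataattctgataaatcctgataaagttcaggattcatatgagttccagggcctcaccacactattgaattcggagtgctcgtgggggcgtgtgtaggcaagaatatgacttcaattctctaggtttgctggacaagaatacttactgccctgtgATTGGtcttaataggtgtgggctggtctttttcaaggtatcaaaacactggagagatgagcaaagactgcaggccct
Counting back from the RefSeq start, the TATA box of Crisp1 lay at -31 to -26. The CCAAT boxes of Rnase9 lay at -144 to -140 and -116 to -112, and the reversed one of Gpx5 at -77 to -73. Among 32817 promoters of this length, searched on both strands, 12.4% held TATAAA and 33.8% held CCAAT. The letters TGTTCT, a half-site of the androgen receptor, were in none of the 3 windows and in 16.1% of all promoters. AGGAAG, a site of ETS factors, was also in none of the 3 and in 29.5% of all.

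In the GENCODE vM21 annotation of GRCm38 (mm10), all 6 are protein-coding genes, and the values measure whole transcripts, exons with their UTRs as far as the authors' counting took them. Crisp1 lies at chr17:40293758-40319207 with 8 exons in its longest transcript, and Cd52 at chr4:134082448-134095082 with 2 exons. Adam7 lies at chr14:68497336-68533741 with 23 exons, and Rnase9 on the same chromosome at chr14:51038459-51041869 with 2 exons. Spink8 lies at chr9:109812280-109826633 with 5 exons, and Gpx5 at chr13:21286429-21292731 with 5 exons. The windows shown above end at the RefSeq starts, and those of Gpx5 and Rnase9 reach into the genes as placed here. Spink8 is on the plus strand and the other 5 are on the minus strand. Cd52 overlaps 1 other annotated gene, Crybg2, which stood at 0.33 to 1.05 RPKM (reads scaled to transcript length and to the library's total) in the 18 libraries and did not share the pattern described next.

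Every library carried testis transcripts at high levels. The summed level of 8 germ cell genes ran from 31600 to 43700 RPKM over the 18 libraries, that of 9 Sertoli cell genes from 570 to 726 and that of 6 Leydig cell genes from 2560 to 5340. Between 13022 and 13490 genes reached 1 RPKM in a library. The spacing of low values implied about 10800000 reads in a library (median over 988 genes, quartiles 5650000 and 13100000), a rough figure. In bulk tissue, fewer cells of a type and less RNA per cell cannot be told apart. Libraries that stood apart in the genes described here were control 3, HFD_STZ_AOS 3, HFD_STZ_AOS_FMT 3 and HFD_STZ_control_FMT 2, each with over 100 RPKM of Crisp1. The results that rest on them are given with and without them.

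Crisp1 encodes a cysteine-rich secretory protein that binds sperm in the epididymis, mainly in its corpus and cauda. Crisp1 stood at 2.71, 0.15 and 158.77 RPKM in control 1 to 3 and at 0.05, 0.10 and 0.05 RPKM in AOS 1 to 3. It stood at 0.15 RPKM in all 3 HFD_STZ libraries and at 2.93, 0.45 and 156.69 RPKM in HFD_STZ_AOS 1 to 3. In the transfer groups it stood at 0.99, 11.49 and 164.71 RPKM in HFD_STZ_AOS_FMT 1 to 3, and at 1.83, 116.64 and 23.11 RPKM in HFD_STZ_control_FMT 1 to 3. Thus 1 library of each of 4 groups was far above the rest, 2 transfer libraries were in between, and the AOS and HFD_STZ groups held no high library. The lowest value, 0.05 RPKM, is worth about 1 read, and the highest was 3290 times that. Group means followed the order HFD_STZ_AOS_FMT (59.1 ± 92 RPKM, SD, n = 3), control (53.9 ± 91), HFD_STZ_AOS (53.4 ± 89), HFD_STZ_control_FMT (47.2 ± 61), HFD_STZ (0.15) and AOS (0.0667 ± 0.029). The first 4 of these overlapped over nearly their whole range, and the last 2 stood at values worth about 1 to 3 reads.

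Cd52 encodes a small glycoprotein anchored in the membrane, made by the distal epididymal epithelium and passed to sperm, and also a surface antigen of lymphocytes. Its levels were 2.56, 2.19 and 133.05 RPKM in control 1 to 3, 1.11, 1.73 and 2.56 in AOS 1 to 3, and 2.55, 2.93 and 3.29 in HFD_STZ 1 to 3. They were 6.37, 4.58 and 130.81 RPKM in HFD_STZ_AOS 1 to 3, 3.60, 11.1 and 139.53 in HFD_STZ_AOS_FMT 1 to 3, and 3.39, 80.99 and 20.25 in HFD_STZ_control_FMT 1 to 3. The high and intermediate libraries were those of Crisp1, but Cd52 was above 1 RPKM in all 18 libraries. In the 7 libraries with Crisp1 at 0.15 RPKM or less, Cd52 kept a level of 1.11 to 3.29 RPKM (median 2.55). A list of 14 leukocyte genes summed to 17.5 to 25.7 RPKM over the libraries, with Ptprc, the common leukocyte antigen, at 0.15 to 0.44 RPKM. The part of leukocytes in the low level of Cd52 was not tested.

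Adam7 encodes a membrane protein of the ADAM family that lacks the protease's active site and is made mainly in the caput. Its levels were 0.07, 0 and 8.62 RPKM in control 1 to 3, at most 0.02 RPKM in the AOS and HFD_STZ libraries, and 0.20, 0.02 and 7.74 RPKM in HFD_STZ_AOS 1 to 3. They were 2.57, 0.58 and 8.09 RPKM in HFD_STZ_AOS_FMT 1 to 3 and 0.02, 4.83 and 1.09 RPKM in HFD_STZ_control_FMT 1 to 3. Adam7 was highest in the 4 libraries highest in Crisp1, and it also reached 2.57 RPKM in HFD_STZ_AOS_FMT 1, where Crisp1 was 0.99 RPKM. It was at 0.20 RPKM or less in control 1, HFD_STZ_AOS 1 and HFD_STZ_control_FMT 1, where Crisp1 was 1.83 to 2.93. It was listed at 0 in 5 libraries, and 0.02 RPKM is worth about 1 read.

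Rnase9 encodes an epididymal member of the RNase A family. Rnase9 levels were 0.13, 0.06 and 5.42 RPKM in control 1 to 3, 0.25, 0 and 4.93 in HFD_STZ_AOS 1 to 3, 0, 0.19 and 4.68 in HFD_STZ_AOS_FMT 1 to 3, and 0.06, 5.43 and 1.01 in HFD_STZ_control_FMT 1 to 3. In the AOS and HFD_STZ libraries it stood at 0 to 0.19 RPKM, where 0.06 is worth about 1 read. Only 5 libraries exceeded 1 RPKM, and they were 5 of the 6 with the most Crisp1. The exception was HFD_STZ_AOS_FMT 2, at 0.19 RPKM of Rnase9.

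Spink8 encodes a secreted protein with the Kazal domain of serine protease inhibitors. Spink8 levels were 1.13, 0.63 and 42.56 RPKM in control 1 to 3, 1.1, 0.37 and 0.60 in AOS 1 to 3, and 2.26, 0.75 and 0.99 in HFD_STZ 1 to 3. Levels of 1.36, 1.85 and 45.14 RPKM were found in HFD_STZ_AOS 1 to 3, 2.45, 4.29 and 48.22 in HFD_STZ_AOS_FMT 1 to 3, and 1.34, 27.08 and 5.40 in HFD_STZ_control_FMT 1 to 3. Spink8 resembled Cd52 in keeping a low level in every library, with 0.37 to 2.26 RPKM in the 7 libraries lowest in Crisp1.

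Gpx5 encodes a secreted glutathione peroxidase of the caput that protects sperm from oxidation and depends on androgen. Its levels were 22.21, 0.86 and 10.04 RPKM in HFD_STZ_AOS_FMT 1 to 3 and at most 0.26 RPKM in the other 15 libraries. In the control group they were 0.09, 0.04 and 0 RPKM, in AOS 0, 0.04 and 0.04, in HFD_STZ 0, 0.13 and 0.13, in HFD_STZ_AOS 0, 0.04 and 0.13, and in HFD_STZ_control_FMT 0.08, 0.08 and 0.26. Since 0.04 RPKM is worth about 1 read, all 15 were within a few reads of 0. Gpx5 was thus at 0 in control 3, which had 158.77 RPKM of Crisp1, and highest in HFD_STZ_AOS_FMT 1, which had 0.99. The 3 HFD_STZ_AOS_FMT libraries, with a mean of 11 ± 11 RPKM (SD, n = 3), did not overlap the rest. Such a separation was found for 59 of the 20595 genes with any value above 0 (0.286%).

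**Figure D1:**
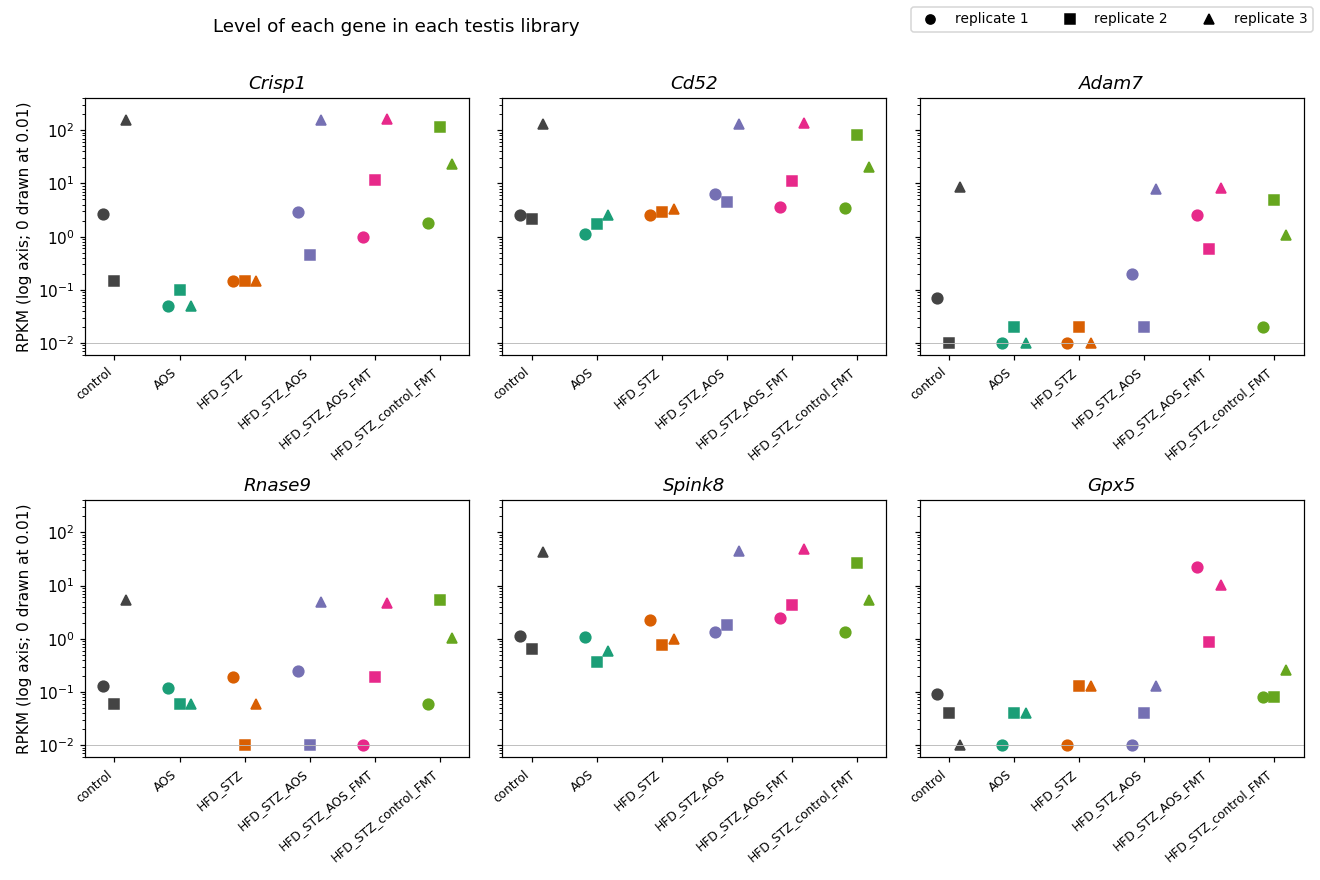
RPKM of the 6 genes on a log axis, 1 panel per gene, with 1 point for each library, colours for the 6 groups and shapes for the replicate number; a value of 0 is drawn at 0.01. Crisp1, Cd52, Adam7, Rnase9 and Spink8 have their highest points in control 3, HFD_STZ_AOS 3, HFD_STZ_AOS_FMT 3 and HFD_STZ_control_FMT 2, whereas Gpx5 exceeds 1 RPKM only in HFD_STZ_AOS_FMT 1 and 3.

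Across the 18 libraries, Pearson's r of log2(RPKM + 1) for the 10 pairs among Crisp1, Cd52, Adam7, Rnase9 and Spink8 ranged from 0.916 (Crisp1 with Adam7) to 0.981 (Crisp1 with Cd52), with a median of 0.96. The 5 pairs with Gpx5 ranged from 0.112 with Rnase9 to 0.43 with Adam7. Over all 15 pairs the median was 0.935. The split between Gpx5 and the others was made after their values were seen. Spearman's rho was lower, at 0.613 to 0.922 for the 10 pairs and -0.0704 to 0.416 for the pairs with Gpx5. As deviations from the group means, the 10 pairs gave r of 0.908 to 0.987, so the shared pattern lay within the groups. Within these groups, the standard deviation of log2(RPKM + 1) was 2.71 for Crisp1, the largest of the 13874 genes tested, and 2.12 for Cd52, the fourth largest. It was 1.85 for Spink8, 1.27 for Adam7 and 1.14 for Rnase9, against a median of 0.104 over all genes.

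These correlations rest in part on the libraries with the most transcript. Without HFD_STZ_AOS_FMT 3 and control 3, the 2 farthest from the median of the genes' mean level, the 10 pairs gave r of 0.862 to 0.97. Over the 14 libraries left without the 4 high in Crisp1, r ranged from 0.328 (Adam7 with Rnase9) to 0.902 (Crisp1 with Cd52), with a median of 0.706. In the same 14 libraries Adam7 gave an r of 0.876 with Gpx5 and of 0.513 with Crisp1. The 0.876 rests on HFD_STZ_AOS_FMT 1, with 22.21 RPKM of Gpx5 and 2.57 of Adam7. In the others of the 14, Gpx5 was at most 0.86 RPKM. The points of a library share its depth and its tissue sample, and 18 libraries are few, so no p is attached.

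**Figure D2:**
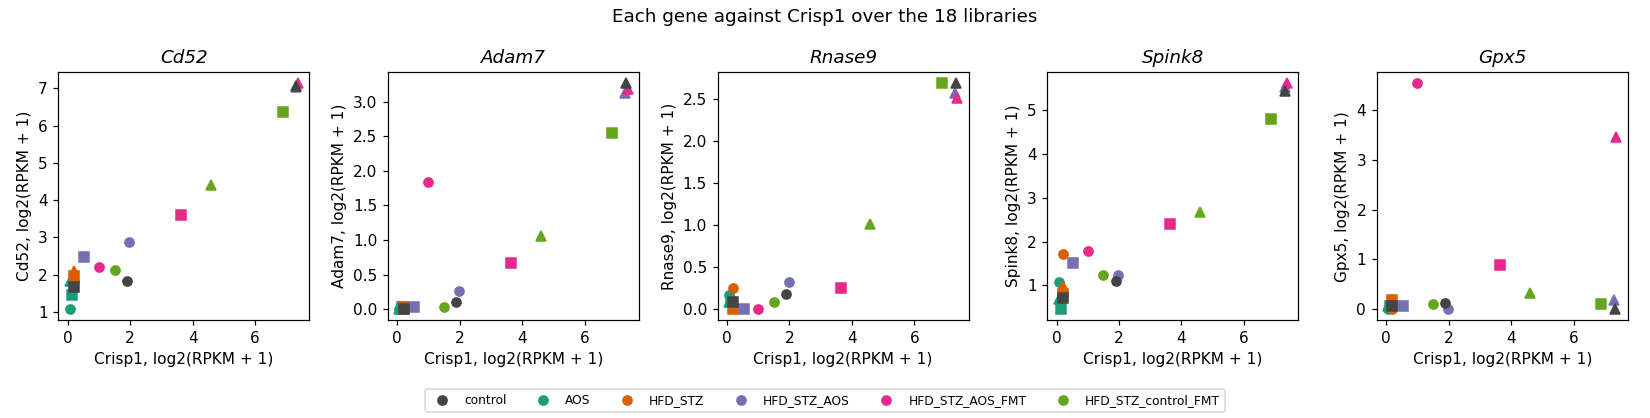
Level of Cd52, Adam7, Rnase9, Spink8 and Gpx5 against Crisp1, all as log2(RPKM + 1), with 1 point per library coloured by group. The first 4 follow Crisp1, with HFD_STZ_AOS_FMT 1 above the others for Adam7 at 2.57 RPKM, and Gpx5 does not follow it.

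Proportions to Crisp1 were compared in the 6 libraries with Crisp1 at 10 RPKM or more, a limit chosen after the values were seen. Cd52 and Adam7 varied least against it. The level of Cd52 was 0.694 to 0.966 of that of Crisp1 on the RPKM scale, which is per length, a 1.39-fold range. That of Adam7 was 0.0414 to 0.0543, a 1.31-fold range, while Crisp1 itself ran from 11.49 to 164.71 RPKM. The ratio of Spink8 to Crisp1 was 0.232 to 0.373, a 1.61-fold range, and that of Rnase9 was 0.0165 to 0.0466, a 2.82-fold range. Gpx5 kept no fixed proportion, with ratios from 0 to 0.0748. HFD_STZ_AOS_FMT 1 had other proportions, with 2.6 times as much Adam7 as Crisp1, 3.64 times as much Cd52, 2.47 times as much Spink8 and 22.4 times as much Gpx5. A control library with little Crisp1, control 1 at 2.71 RPKM, had 0.07 RPKM of Adam7.

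Whether the groups differed in these genes was tested with limma on log2(RPKM + 1) over 18 libraries, a scale that understates the change of low genes. Of the 6 genes, 5 passed the filter of 1 RPKM in at least 3 libraries, and Gpx5 did not. None of the 5 passed an adjusted p of 0.05 in any of 7 comparisons. In HFD_STZ against control, 0 of 5 passed, beside 0% of 13874 genes, and 0 of 5 and 1151 of all genes had an unadjusted p under 0.05. Crisp1 differed by -2.94 ± 1.94 (SE) on the log2 scale with an adjusted p of 0.734, and the 5 genes, all lower, had a median difference of -1.25 against 0.02 over all genes. In AOS against control, 0 of 5 passed beside 0% of all genes, and 0 of 5 and 1923 of all had an unadjusted p under 0.05. Crisp1 differed by -3.04 ± 1.94 with an adjusted p of 0.498, and the median of the 5 was -1.68 against -0.03. Both of these comparisons share the control libraries and with them control 3, the library that sets the control mean: without it the differences of Crisp1 were -0.84 and -0.95.

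Against HFD_STZ, which held no high library, the 5 genes were higher on the fitted scale in all 3 groups with an added treatment, and none passed. These comparisons share the HFD_STZ libraries. In HFD_STZ_AOS, 0 of 5 passed beside 0% of all genes, with 1734 of all genes and 0 of 5 at an unadjusted p under 0.05. There Crisp1 differed by 3.07 ± 1.94 with an adjusted p of 0.533, and by 1.05 without HFD_STZ_AOS 3. In HFD_STZ_AOS_FMT, 0 of 5 passed beside 0.0144% of all genes, 2 genes, with 2006 and 0 of 5 at an unadjusted p under 0.05. Crisp1 differed by 3.8 ± 1.94 with an adjusted p of 0.380, and Adam7, the smallest adjusted p among the 5, by 1.88 ± 0.91 with an adjusted p of 0.354. Without HFD_STZ_AOS_FMT 3 these differences were 2.12 and 1.24, and with a pseudocount of 0.1 that of Adam7 was 4.53 with an adjusted p of 0.259. In HFD_STZ_control_FMT, 0 of 5 passed beside 0.00721% of all genes, 1 gene, with 2243 of all genes and 1 of 5 at an unadjusted p under 0.05. That 1 was Crisp1, which differed by 4.12 ± 1.94 with an adjusted p of 0.307, and by 2.84 without HFD_STZ_control_FMT 2. The medians over the 5 genes were 1.59, 2.1 and 1.74 in these 3 comparisons, against -0.01, -0.02 and -0.03 over all genes.

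Between the transfer groups, HFD_STZ_AOS_FMT against HFD_STZ_control_FMT, 3 of the 5 genes were higher and 2 lower, with a median difference of 0.01, equal to that over all genes. None passed, beside 0.0216% of all genes, 3 genes, with 635 of all genes and 0 of 5 at an unadjusted p under 0.05. Crisp1 differed by -0.32 ± 1.94 with an adjusted p of 0.999, and the sign turned to 1.18 without HFD_STZ_AOS_FMT 1 and to 0.96 without HFD_STZ_control_FMT 2. In the interaction, which asks whether AOS acted otherwise with the diet and STZ than without them, 0 of 5 passed beside 0% of all genes. All 5 were positive there, with a median of 3.27 against 0.02 over all genes, and 640 of all genes and 1 of 5, Crisp1, had an unadjusted p under 0.05. Crisp1 gave 6.11 ± 2.74 with an adjusted p of 0.999, and 2.01 without the 4 libraries high in Crisp1.

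Gpx5 could be tested only with no filter on low values. Its spread over the libraries, by which it was chosen, lay in HFD_STZ_AOS_FMT, so its tests reuse the values of that choice and decide nothing. In that fit of HFD_STZ_AOS_FMT against HFD_STZ it differed by 2.85 ± 0.57 on the log2 scale with an adjusted p of 0.0994, beside 16 of 20595 genes (0.0777%) that passed. Against HFD_STZ_control_FMT it differed by 2.78 ± 0.57 with an adjusted p of 0.169, beside 11 genes (0.0534%). Neither passed, and the library HFD_STZ_AOS_FMT 2 had 0.86 RPKM against 22.21 and 10.04 in the others of its group.

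Among the 14373 genes with at least 1 RPKM in some library, those most like the 6 were named by their r with the mean of the 6 standardised levels, for which the median gene had 0.05. The 10 most alike were Cuzd1 (0.976), Wfdc15b (0.974), Gpx3 (0.968), Defb28 (0.967), Wfdc13 (0.965), Ly6f (0.964), Ces5a (0.964), Wfdc16 (0.960), Prom2 (0.959) and Rnase12 (0.959). Defb28 encodes a beta-defensin, a small antimicrobial peptide, and Wfdc13, Wfdc15b and Wfdc16 encode small secreted proteins with the WAP domain of protease inhibitors. Defb28 stood at 24.07 RPKM in control 3, 21.08 in HFD_STZ_AOS 3, 26.44 in HFD_STZ_AOS_FMT 3, 19.18 in HFD_STZ_control_FMT 2, and at 3.34 or less in the other libraries. Gpx3, which encodes the plasma glutathione peroxidase, kept a base of at least 8.30 RPKM in all libraries and reached 59.35 to 68.03 in control 3, HFD_STZ_AOS 3 and HFD_STZ_AOS_FMT 3. An r over 0.9 was found for 35 genes. Below, an r with the 6 genes is the r with this mean, and it need not hold for Gpx5. With Gpx5 alone, Gpx3 gave an r of 0.376 and Rnase12 of 0.236.

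The genes most like Gpx5, ranked the same way after its values were seen, were others. Lcn6 (r = 0.996), Lcn9 (0.989) and Lcn10 (0.981) encode epididymal lipocalins, small carriers of hydrophobic ligands. Spag11b (0.989), Defb20 (0.985), Defb47 (0.984) and Defb18 (0.983) encode defensin-like peptides, and the list went on with 9230110F15Rik (0.993), Teddm1a (0.974) and Clpsl2 (0.956). All these r rest on HFD_STZ_AOS_FMT 1 and 3, and no r was computed without these libraries. Lcn6, Lcn10, Defb18 and 9230110F15Rik met the limit of 1 RPKM only in HFD_STZ_AOS_FMT 1. Lcn9 stood at 5.69, 0.21 and 2.46 RPKM in HFD_STZ_AOS_FMT 1 to 3 and at 0.10 or less in the other 15 libraries. Spag11b stood at 12.56, 0.14 and 4.17 RPKM in those 3 libraries and at 0.04 or less elsewhere. An r over 0.9 with Gpx5 was found for 13 genes. Defb47 stood at 37.31, 2.15 and 14.48 RPKM in HFD_STZ_AOS_FMT 1 to 3 and at 0.67 or less elsewhere. In HFD_STZ_AOS_FMT 1 and 3 the level of Lcn9 was 0.256 and 0.245 of that of Gpx5, and that of Lcn10 was 0.0684 and 0.0737. Other genes varied more against Gpx5, with 0.505 and 0.57 for Cst11, 0.0473 and 0.0647 for Lcn6, 0.566 and 0.415 for Spag11b, and 0.509 and 0.224 for Defb41. The level of Adam7 was 0.116 and 0.806 of that of Gpx5 in the same libraries, so Adam7 did not keep its proportion to Gpx5.

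**Figure D3:**
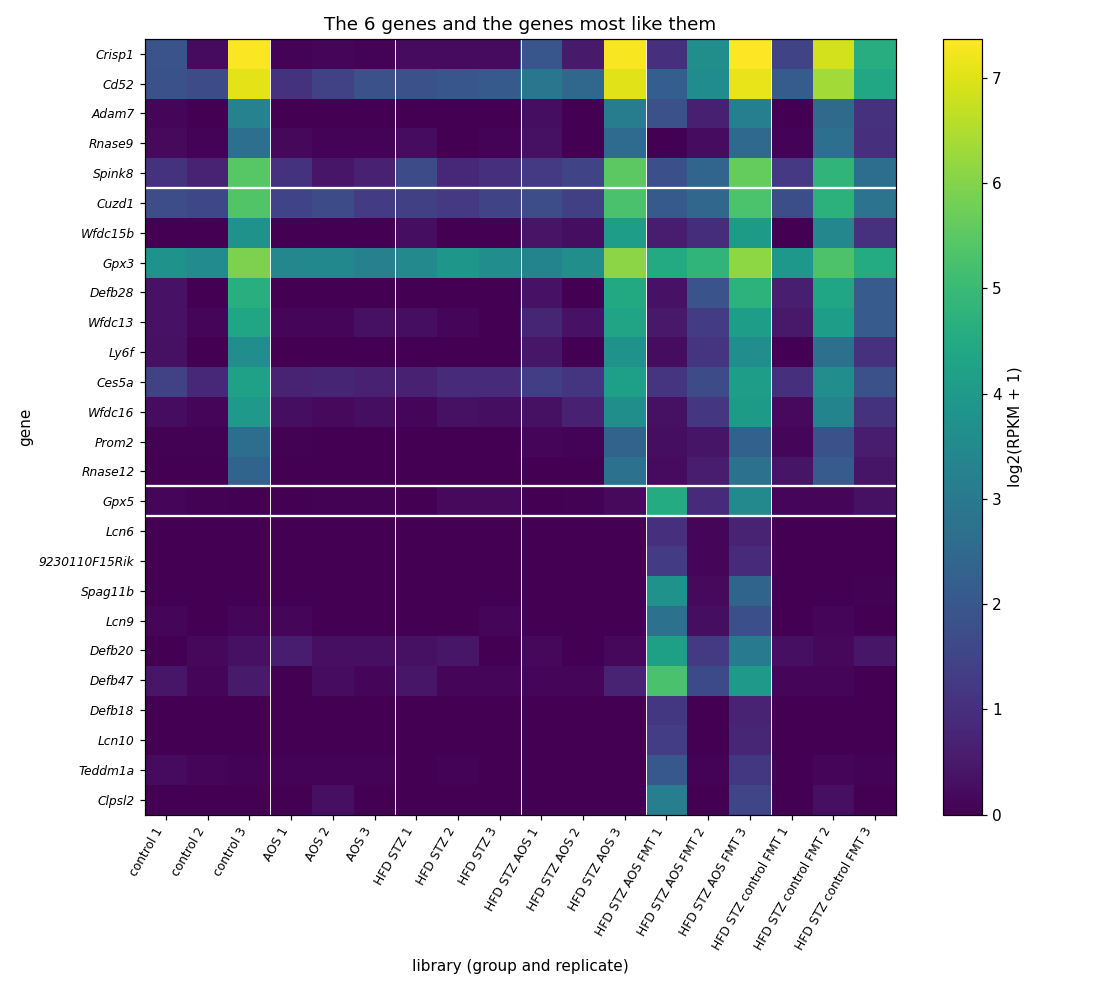
Level as log2(RPKM + 1), by colour, of the 6 genes and the 10 genes most like them and most like Gpx5 (rows) in the 18 libraries (columns, by group). The upper block is bright in control 3, HFD_STZ_AOS 3, HFD_STZ_AOS_FMT 3 and HFD_STZ_control_FMT 2, and the block under Gpx5 is bright in HFD_STZ_AOS_FMT 1 and 3.

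Relatives of the 6 genes in the same families mostly held steady levels. Crisp2, which the germ cells make, stood at 1716 to 1992 RPKM in the 18 libraries, while Crisp3, 51.5 kb from Crisp1 with no protein-coding gene between, stood at 0.05 RPKM or less. Crisp4, another epididymal gene of the family, stood at 0.38 RPKM in control 3, 0.55 in HFD_STZ_AOS 3, 0.45 in HFD_STZ_control_FMT 2 and 0.18 or less elsewhere. The sources used here do not give how reads shared by Crisp1 and its close relatives were assigned. The sperm ADAM genes Adam2 and Adam3 ranged from 109.92 to 127.86 and from 484.03 to 528.74 RPKM. Adam28, 72.3 kb from Adam7, stood at 0.08 or less, too low for a pattern to be seen.

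The RNase A family was mixed. Rnase12, 14.8 kb from Rnase9, had an r of 0.959 with the 6 genes and stood at 4.14, 5.89, 5.83 and 3.31 RPKM in the 4 libraries high in Crisp1 and at 0.52 or less elsewhere. Rnase10, 27.7 kb from Rnase9, stood at 1.5 to 4.3 RPKM with an r of 0.191. Among the SPINK genes, Spink2, a germ cell inhibitor, stood at 827.58 to 1163.88 RPKM, whereas Spink10 had an r of 0.953 and reached 2.28 RPKM in HFD_STZ_AOS_FMT 3. Gpx6, 19.4 kb from Gpx5, stood at 48.71 to 67.35 RPKM and Gpx4, the peroxidase of the sperm midpiece, at 1180 to 1483 RPKM. Of the neighbours named here, Rnase12 shared the pattern of Rnase9 and Rnase10 did not, and Gpx6 did not share that of Gpx5. Crisp3 near Crisp1 and Adam28 near Adam7 were too low for a pattern to be seen.

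**Figure D4:**
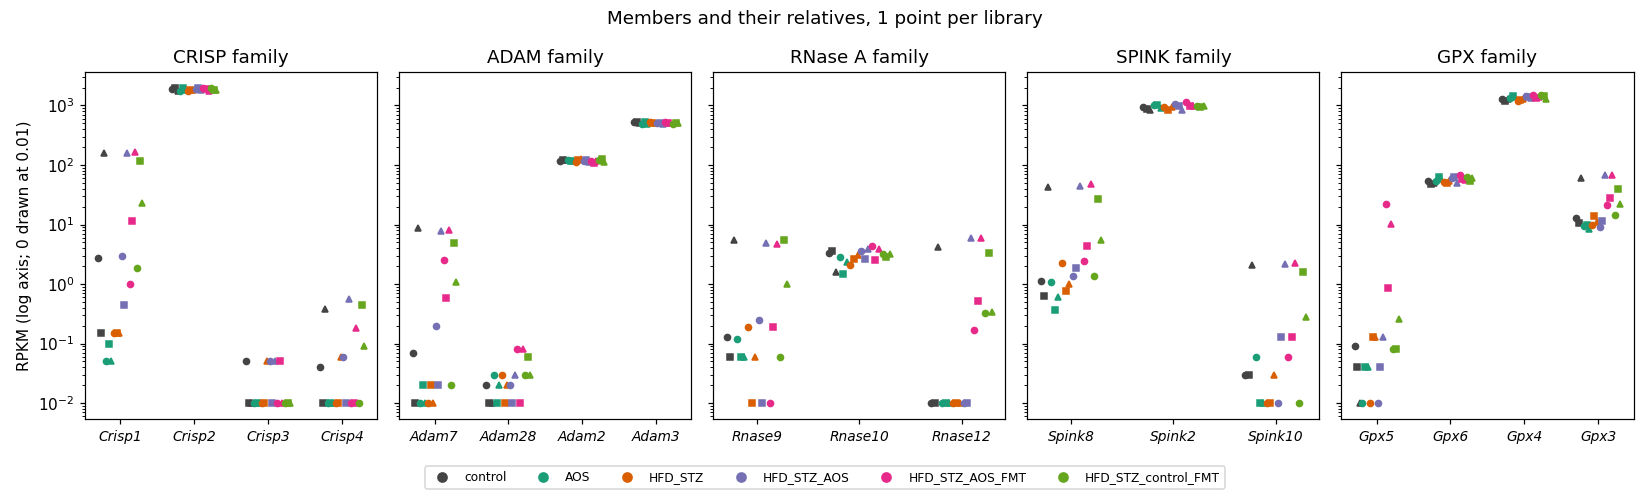
RPKM on a log axis of the CRISP, ADAM, RNase A, SPINK and GPX genes named in the text, with 1 point per library coloured by group and 0 drawn at 0.01. Crisp2, Adam2, Adam3, Spink2, Gpx6 and Gpx4 form tight clusters, and Rnase12, Spink10 and Gpx3 spread as Crisp1 does.

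Of 140 genes in 16 lists of relatives and of cell types, 138 were in the table and 80 were tested, and 0 passed in any of the 7 comparisons (smallest adjusted p 0.126). None of the 6 lipocalins could be tested, but their summed level was 9.83, 0.8 and 5.11 RPKM in HFD_STZ_AOS_FMT 1 to 3 and at most 0.82 in the other libraries. Of 18 other epididymal genes, 1 had an r over 0.9 with the 6 genes, Pate1, and 3 with Gpx5, namely Cst11, Spag11b and Ly6g5c. Pate1 stood at 2.71, 2.33, 1.49 and 1.99 RPKM in the 4 libraries high in Crisp1. Cst11, a cystatin of the caput, stood at 11.22, 0.89 and 5.72 RPKM in HFD_STZ_AOS_FMT 1 to 3 and at 1.33 or less elsewhere. Cst8 at 239.79 to 378.98 RPKM and Aqp9 at 23.96 to 30.42 were at a high level in every library, and both are also known from the testis.

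Markers of other cells were set beside these levels. Of 13 genes of efferent duct and duct epithelium, 1 had an r over 0.9, the keratin gene Krt18, at 2.65, 2.51, 3.30 and 1.89 RPKM in the 4 libraries high in Crisp1 and at 0.95 or less in the other 14. Pax8, which is made in the efferent and epididymal epithelium, stood at 0.86, 0.87, 0.87 and 0.70 RPKM in the same 4 and at 0.38 or less in the others. Others of the 13 followed less or not at all, with r of 0.645 for Krt8, 0.497 for Epcam and -0.023 for Muc1. The median r was 0.328 over the 9 with at least 1 RPKM in a library, and the 13 summed to 38.1 to 54.5 RPKM. Some markers of other epididymal cells, picked after their values were seen, were low and mostly higher in the 4 libraries high in Crisp1. Krt14 of basal cells stood at 0.13, 0.08, 0.14 and 0.13 RPKM in the same 4 and at 0 in the other 14, and Krt5 of basal cells at 0.09, 0.24, 0.22 and 0.06 against 0.03 or less. Foxi1 of clear cells stood at 0.17, 0.20, 0.17 and 0.06 RPKM in the 4 and at 0.11 or less in the others, and Atp6v1g3 at 0.07, 0.22, 0.22 and 0.14 against 0.04 or less. These values are worth few reads each. Others in the same lists did not follow the 6 genes. Trp63 of basal cells stood at 1.11, 0.75, 0.68 and 0.97 RPKM in the 4 and at up to 1.20 in the others. Its r with the 6 genes was 0.125, that of Itga6 of basal cells was -0.0395 and that of Atp6v1b1 of clear cells was 0.278. The basal list of 5 genes summed to 2.70 to 5.05 RPKM and the clear cell list of 6 genes to 6.82 to 11. Genes of seminal vesicle and prostate, 8 in the table, summed to 3.44 to 6.71 RPKM, with a median r of -0.175 with the 6 genes.

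The list that moved most with the 6 genes was that of fat cells, with a median r of 0.63 over 9 genes, 0 of them over 0.9. Fat surrounds the epididymis in the mouse. The summed level of the 9 genes was 41.8 RPKM in control 3, 150 in HFD_STZ_AOS 3, 172 in HFD_STZ_AOS_FMT 3 and 60.2 in HFD_STZ_control_FMT 2. It was 181 in HFD_STZ_control_FMT 3, which had only 23.11 RPKM of Crisp1. By group the sum ranged over 26.4 to 45.1 RPKM in control, 26.7 to 51.8 in AOS, 28.4 to 42.2 in HFD_STZ, 30.6 to 150 in HFD_STZ_AOS, 67.8 to 172 in HFD_STZ_AOS_FMT and 60.2 to 181 in HFD_STZ_control_FMT. Fabp4, a fatty acid carrier of fat cells, stood at 6.86 RPKM in control 3, beside 11.28 and 3.84 in the other control libraries, and at 104.95 in HFD_STZ_control_FMT 3. Control 3 was thus among the 3 highest libraries in Crisp1, with a fat cell sum inside the range of the other control libraries. The part of other tissue in the levels of the 6 genes was not tested.

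**Figure D5:**
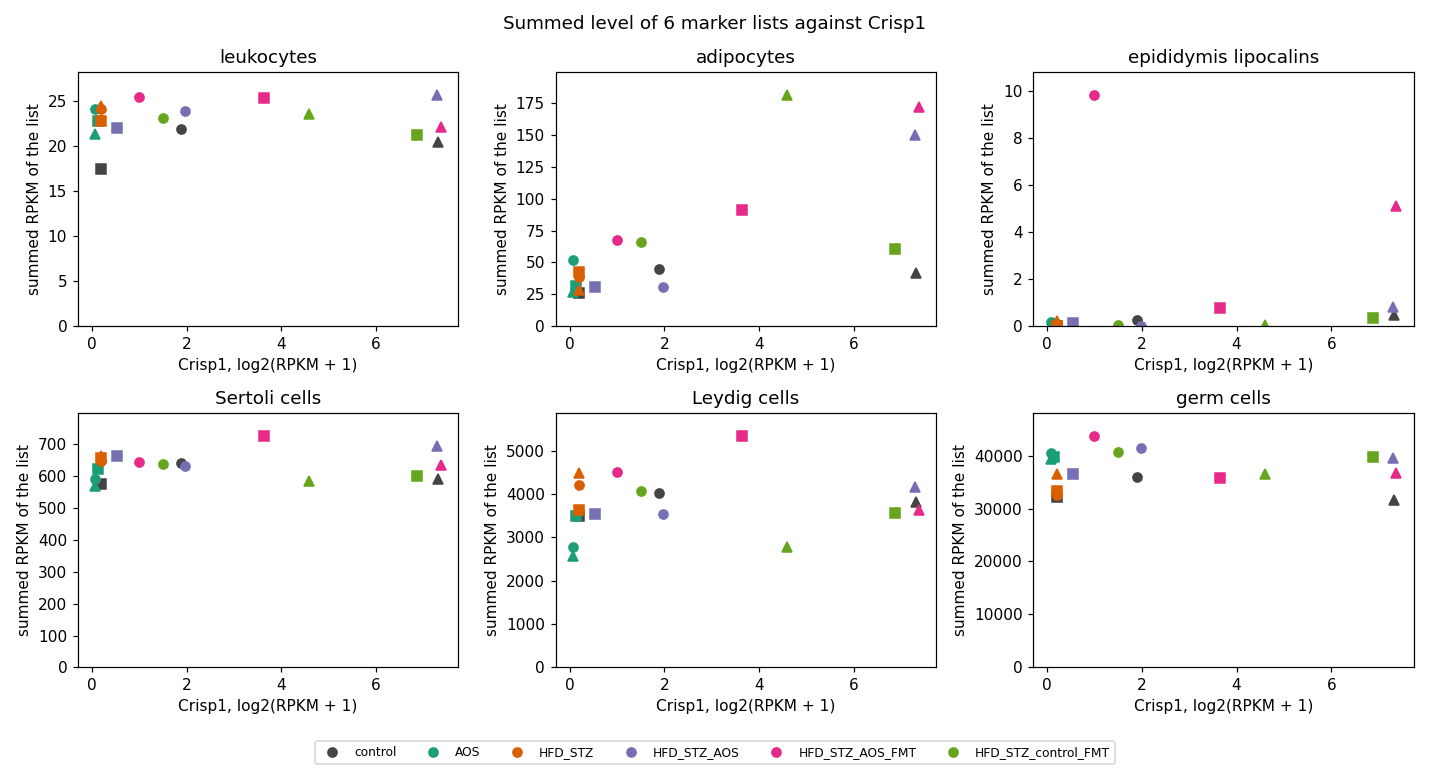
Summed RPKM of 6 lists of marker genes (vertical axes, linear and starting at 0) against Crisp1 as log2(RPKM + 1), with 1 point per library coloured by group and shaped by replicate number. Leukocyte, Sertoli, Leydig and germ cell sums are at like levels at low and high Crisp1, the fat cell sum is high in 3 libraries that include 2 of the 4 highest in Crisp1, and the lipocalin sum is high only in HFD_STZ_AOS_FMT 1 and 3.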

How the data were processed

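Testis RNA of 18 libraries in 6 groups of 3 was sequenced by the standard Illumina route from frozen tissue, per the labels' protocols. Bowtie 0.12.2 and build mm10 are named in the submitters' processing notes. How reads were counted, on which annotation and whether by strand is not given in the sources used here. A table of 20985 rows, named by gene symbol, was deposited by the authors, with values rounded to hundredths that were read as RPKM. The header does not name the unit, and whether reads or fragments were counted is not stated. RPKM divides by transcript length and library total, so a few abundant transcripts can move all other values. After 6 rows of repeated symbols were left out, 20979 genes remained, 384 of them at 0 throughout, and 22 rows had dates for symbols.

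Differences were tested with limma 3.58.1 (R 4.3.3) on log2(RPKM + 1), with a trend, 1 coefficient per group, 12 residual and 3.71 prior degrees of freedom, two-sided, adjusted by Benjamini and Hochberg over 13874 genes. A gene was tested where 3 or more libraries had 1 RPKM or more. The threshold was an adjusted p of 0.05. Counts over all genes include a result that is not reported here. The fit was tested on simulated data. Correlations and plots used Python 3.11.15, pandas 2.3.3 and matplotlib 3.10.9.

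The 6 genes and the gene lists were chosen with earlier results of these data known. By rule, the text named the 6 genes, up to 4 genes with the highest level in a list, and the 10 genes with the largest r to the mean of the 6. Genes named beyond that rule, among them Crybg2, Crisp3, Crisp4, Adam28, Pate1, Cst11, Ly6g5c, Pax8, Foxi1, Atp6v1g3, Krt5, Krt14, Ptprc and those like Gpx5, were chosen after their values were seen. So were the limits of 10, 0.15 and 100 RPKM of Crisp1. Alternatives were a pseudocount of 0.1, no filter, scaling by median ratios, a fit on the groups compared only, the replicate number as a block, the omission of each library in turn and, added later, of the 4 libraries high in Crisp1.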

Additional observations from a re-analysis of the deposited data

How the results depend on the processing

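None of the 6 genes passed in any of the 7 comparisons under any alternative in which it could be tested. Without the 4 libraries high in Crisp1, 3 of them could be tested. In the fit on the groups compared only, 2 to 5 could, depending on the comparison. The adjusted p of the 6 genes over all fits was lowest at 0.0994, for Gpx5 with no filter. With each library left out in turn, the log2 difference of Crisp1 ranged from -4.4 to -0.845 in HFD_STZ against control, from -4.51 to -0.954 in AOS against control, from 1.05 to 4.44 in HFD_STZ_AOS, 2.12 to 5.31 in HFD_STZ_AOS_FMT and 2.84 to 5.53 in HFD_STZ_control_FMT against HFD_STZ, and from 4.02 to 7.58 in the interaction. That of Adam7 in HFD_STZ_AOS_FMT against HFD_STZ ranged from 1.24 to 2.5. Between the transfer groups the log2 difference of Crisp1 ranged from -2.01 to 1.18, so its sign depended on the library. Without the 4 libraries high in Crisp1, the 7 differences of Crisp1 were -0.845, -0.954, 1.05, 2.12, 2.84, -0.728 and 2.01. The count of all genes that passed moved from 2 to 4 with a pseudocount of 0.1 in HFD_STZ_AOS_FMT against HFD_STZ, and with no filter to 16 there, from 1 to 4 in HFD_STZ_control_FMT against HFD_STZ and from 3 to 11 between the transfer groups. With 1 library left out these counts ranged over 0 to 4, 1 to 14 and 0 to 2, and over 0 to 3 in AOS against control. Fewer genes then met the filter, and the part of this in the ranges was not tested. The 14, in HFD_STZ_control_FMT against HFD_STZ, came without HFD_STZ_control_FMT 3. The median r of the 15 pairs was 0.935, and 0.918 to 0.965 with each library left out, 0.708 as Spearman's rho and 0.648 without the 4 libraries.

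The data did not show that the replicate numbers pair the libraries. Of 45 pairs of same-numbered libraries, 11 had deviations that correlated above 0.1 (median 0.000513), and 8 of 18 libraries were closest to their own number. Control 3, HFD_STZ_AOS 3 and HFD_STZ_AOS_FMT 3, high in Crisp1, share a number, and HFD_STZ_control_FMT 2 does not. The block lowered the SE of Crisp1 in HFD_STZ against control from 1.94 to 1.58. Whether the numbers mark a batch was not tested. With the replicate number as a block, 0 of the 5 genes tested passed in any comparison, and the count of all genes moved from 1 to 2 in HFD_STZ_control_FMT against HFD_STZ and from 3 to 2 between the transfer groups. Low values limit Gpx5, Adam7 and Rnase9 most, since 0.02 to 0.06 RPKM is worth about 1 read.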

Other observations

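Genes of a different kind also separated the HFD_STZ_AOS_FMT libraries. Kap, the kidney androgen-regulated protein, stood at 39.24, 31.16 and 31.36 RPKM in HFD_STZ_AOS_FMT 1 to 3 and at 0.73 or less in the other 15 libraries. Kap met the filter of 3 libraries at 1 RPKM only through this group, so no test is given for it. Slc34a1, a phosphate transporter of the kidney, stood at 0.86, 0.75 and 1.11 RPKM in the same libraries and at 0.15 or less elsewhere. Unlike Gpx5, which was 22.21, 0.86 and 10.04 RPKM, these 2 genes, chosen after their values were seen, were at like levels in all 3 libraries of the group.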
